A study of Mus musculus with 8 samples.

Results

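The immediate early transcription factors described here are 10 genes, Fos, Fosb, Fosl2, Jun, Junb, Egr1, Egr2, Atf3, Ier2 and Nr4a1, of 19752 named genes on the array, measured by 11 of its 55681 gene probes. A probe was taken as a member when the RefSeq transcript it was designed on belongs to 1 of these genes. Fosl2 had 2 probes and each other gene had 1. All 11 probes were bright enough to be tested among the 33982 probes tested in all. Gonadal white fat was taken from 10-week-old female mice, before Rap1-/- mice become obese, and total RNA was hybridised to one-colour Agilent 60-mer arrays, with 4 arrays of Rap1-/- mice and 4 of wild-type (WT) mice. Rap1-/- mice lack RAP1, the shelterin subunit encoded by Terf2ip, in the whole body, since the floxed allele had been deleted by a Cre transgene under the EIIa promoter. They were bred from heterozygotes that no longer carried the transgene, and both genotypes had the C57BL6/129SV (90%:10%) background. The comparison asks how fat transcripts differ when RAP1 is absent from all cells of the animal throughout its life. The labels do not say whether each array is a separate animal, so the p-values measure the spread between these 8 arrays, which may be technical.

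Immediate early genes are transcribed within minutes of a stimulus, without new protein synthesis, because the factors that switch them on are already bound to or near their promoters. Serum response factor on CArG boxes, together with ETS proteins such as ELK1, and CREB on cAMP response elements are the best known of these. FOS and JUN proteins pair through leucine zippers to form AP-1, EGR proteins bind GC-rich sites through zinc fingers, and NR4A1 is an orphan nuclear receptor. Their transcripts are short-lived and respond to growth factors, adrenergic signals, stress and the handling of tissue, and in fat Egr2 is known as an early promoter of adipocyte differentiation.

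The promoters of Fos, Fosb, Nr4a1 and Egr2 are shown because Fos had the largest mean difference of the 10 genes between genotypes, Fosb the most outlying single array, and Egr2 and Nr4a1 the closest covariation across arrays. RefSeq windows (GRCm38.p6) matched 8 of the 10 genes. For Fos, Fosb and Nr4a1 the 250 bases before the start site are given 5′ to 3′ on the strand of the gene. Capitals mark TGACG, the core of a cAMP response element, on either strand (its other strand reads CGTCA), and the TATAAA box of Fos. For Egr2, which has several annotated starts, 30 bases around each of 2 CArG boxes are given with the box in capitals.
Fos, chr12:85473640-85473889, plus strand: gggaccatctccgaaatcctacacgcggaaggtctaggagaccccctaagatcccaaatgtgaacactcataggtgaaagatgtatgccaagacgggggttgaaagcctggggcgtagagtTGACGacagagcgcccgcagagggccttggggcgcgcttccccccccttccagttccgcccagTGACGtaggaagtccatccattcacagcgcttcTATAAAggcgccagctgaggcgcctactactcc
Fosb, chr7:19310046-19310295, minus strand: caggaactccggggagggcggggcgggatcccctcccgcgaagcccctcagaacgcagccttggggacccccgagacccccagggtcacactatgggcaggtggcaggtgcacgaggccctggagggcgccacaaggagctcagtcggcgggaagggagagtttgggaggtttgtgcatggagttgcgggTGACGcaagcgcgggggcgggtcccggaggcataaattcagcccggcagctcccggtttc
Nr4a1, chr15:101266596-101266845, plus strand: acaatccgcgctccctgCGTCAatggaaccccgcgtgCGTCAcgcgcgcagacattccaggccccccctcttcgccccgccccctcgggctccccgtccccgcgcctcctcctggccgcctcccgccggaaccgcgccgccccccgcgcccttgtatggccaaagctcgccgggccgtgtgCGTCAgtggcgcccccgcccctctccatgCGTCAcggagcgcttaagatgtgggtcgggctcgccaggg
Egr2, chr10:67537484-67537513, plus strand: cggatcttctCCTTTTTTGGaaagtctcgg
Egr2, chr10:67537787-67537816, plus strand: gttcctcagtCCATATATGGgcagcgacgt

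TGACG was searched on both strands over the windows of 250 bases before to 50 after each start. The 8 matched genes had 12 windows, since a gene can have several starts. TGACG occurred in 8 of the 12, from 6 genes (Fos, Fosb, Junb, Egr2, Atf3 and Nr4a1), and in 17.8% of the 32851 windows in the table. The CArG box, searched as its standard consensus on both strands, occurred in 4 of the 12 windows and in 1.47% of all windows. Those 4 were overlapping or neighbouring windows of Egr2 alone. TATAAA occurred in 1 of the 12 windows, that of Fos, and in 12.4% of all windows. The full palindrome TGACGTCA, which contains TGACG, and the AP-1 site TGACTCA occurred in 0 of the 12 windows, and in 1.55% and 4.46% of all windows respectively. These matches describe the sequence of the windows only, and sites farther from a start were not searched. A gene without a match here may therefore have the site elsewhere.

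All 10 genes had a higher mean in Rap1-/- than in WT fat, and 0 of the 10 passed the test over all probes (limma with Benjamini-Hochberg adjustment, smallest adjusted p = 0.897). At an adjusted p under 0.05, 0.00589% of all tested probes were called, which is 2 probes, both of Terf2ip (0.00294% with Rap1-/- higher). A higher mean in Rap1-/- was found for 40.4% of all tested probes. The mean was higher by at least 0.5 on the log2 scale for 6 of the 10 genes and for 1.83% of all tested probes. An unadjusted p under 0.05 with a higher mean was found for 2 of the 10 genes (Fos and Egr2) and for 1.63% of all tested probes, against 3.2% with a lower mean and 4.83% in either direction. The differences ran from 0.16 for Ier2 to 1.19 for Fos, with a median of 0.61 over the 10 genes, against -0.04 over all tested probes. The members were chosen with earlier results of these data known, so these counts describe the list and do not test it. Members also scattered more between arrays than most probes, with a median residual SD of 0.67 against 0.21. Fosl2 is represented in these counts by the brighter of its probes. Values below are log2 signal relative to the 75th percentile of the array, and levels of different genes cannot be compared because they come from different probes.

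All 8 arrays were used. The 75th percentile of the signal ran from 302 to 497 intensity units, 59.7% to 65.2% of spots were well above background, 0 spots were saturated, and array pairs correlated at 0.977 to 0.992 across probes, which are not independent replicates. The Terf2ip probe A_52_P381806 was well above background on all 4 WT arrays (0.06 to 0.49) and on 0 of the 4 Rap1-/- arrays, where its values lay between -7.58 and -7.13. The other probe of Terf2ip differed the opposite way, by 2.38 ± 0.09 (SE), so the probes disagree. Each slide held 2 arrays of each genotype, but WT and Rap1-/- arrays took different positions on a slide, so position and genotype cannot be told apart.

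Fos encodes the best known partner of JUN in AP-1. Fos read -1.28, -0.80, 0.54 and -2.01 in Rap1-/- replicates 1 to 4, and -2.25, -2.29, -1.71 and -2.07 in WT replicates 1 to 4. Replicates 1, 2 and 3 of Rap1-/- lay above every WT array, while replicate 4 lay among the WT arrays. The means were -0.89 ± 1.08 and -2.08 ± 0.27 (SD, n = 4 each), a difference of 1.19 ± 0.48 (SE) or 2.28-fold, with a 95% interval of 0.10 to 2.28. It did not pass the test over all probes (limma, unadjusted p = 0.036, adjusted p = 0.897). The difference was 1.23 ± 0.22 (SE) on the first slide and 1.15 ± 0.88 on the second, where only Rap1-/- replicate 3 lay above the WT arrays. It was 0.72 without Rap1-/- replicate 3.

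Fosb, a FOS relative known for its long-lived splice form in neurons, read -1.40, -1.17, 0.68 and -1.31 on the Rap1-/- arrays and -1.70, -2.10, -1.32 and -0.55 on the WT arrays. Rap1-/- replicate 3 stood far above the other 7 arrays, WT replicate 4 came next, and the groups overlapped. The difference was 0.62 ± 0.51 (SE, limma adjusted p = 0.903). It was 0.13 without Rap1-/- replicate 3 and 0.39 without WT replicate 2.

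Fosl2 encodes FRA-2, a FOS family member that lacks the strong activation domain of FOS. Its brighter probe read 1.76, 2.07, 1.81 and 2.58 on the Rap1-/- arrays and 1.52, 1.94, 1.79 and 1.93 on the WT arrays. Here replicate 4 of Rap1-/- was highest, replicate 3 sat among the WT arrays, and the groups overlapped. The difference was 0.26 ± 0.19 (SE, limma adjusted p = 0.897), but 0.089 without Rap1-/- replicate 4 and 0.17 without WT replicate 1. The dimmer probe, well above background on 2 of 4 arrays in each genotype, gave -0.08 ± 0.28 (limma adjusted p = 0.983), so the sign was not shared by both probes.

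Jun encodes the central JUN protein, which can pair with itself or with FOS proteins. Jun was the tightest of the 10 genes, at 3.72, 3.79, 3.80 and 3.90 in Rap1-/- and 3.35, 3.64, 3.62 and 3.72 in WT. It was the sole member whose groups did not overlap, and only just, since the lowest Rap1-/- array and the highest WT array both round to 3.72. Groups that do not overlap, with Rap1-/- higher, were found for 0.889% of all tested probes, and in either direction for 3.16%. The difference was 0.22 ± 0.10 (SE), 1.17-fold, and did not pass (limma, unadjusted p = 0.061, adjusted p = 0.897). It was 0.14 without WT replicate 1.

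Junb, whose product is a weaker activator than JUN and often opposes it, read -4.12, -3.96, -3.25 and -4.14 on the Rap1-/- arrays and -4.28, -3.34, -5.15 and -3.96 on the WT arrays. The groups overlapped over most of their range, with WT replicate 3 lowest. The probe was dim, being well above background on 3 of the 4 WT arrays but not on WT replicate 3. The difference of 0.32 ± 0.37 (SE, limma adjusted p = 0.925) was -0.23 on the first slide and 0.86 on the second. It was -0.0058 without WT replicate 3, 0.11 without Rap1-/- replicate 3 and 0.60 without WT replicate 2.

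Atf3 encodes a stress-induced repressor that pairs with JUN proteins. Atf3 read -0.65, -0.19, 1.43 and -0.25 on the Rap1-/- arrays and -1.06, -0.26, -1.42 and 0.17 on the WT arrays. Rap1-/- replicate 3 was again the highest and WT replicate 4 the second, and the other Rap1-/- arrays lay within the WT range. The difference of 0.73 ± 0.50 (SE, limma adjusted p = 0.897) was 0.28 without Rap1-/- replicate 3 and 0.47 without WT replicate 3.

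**Figure D1:**
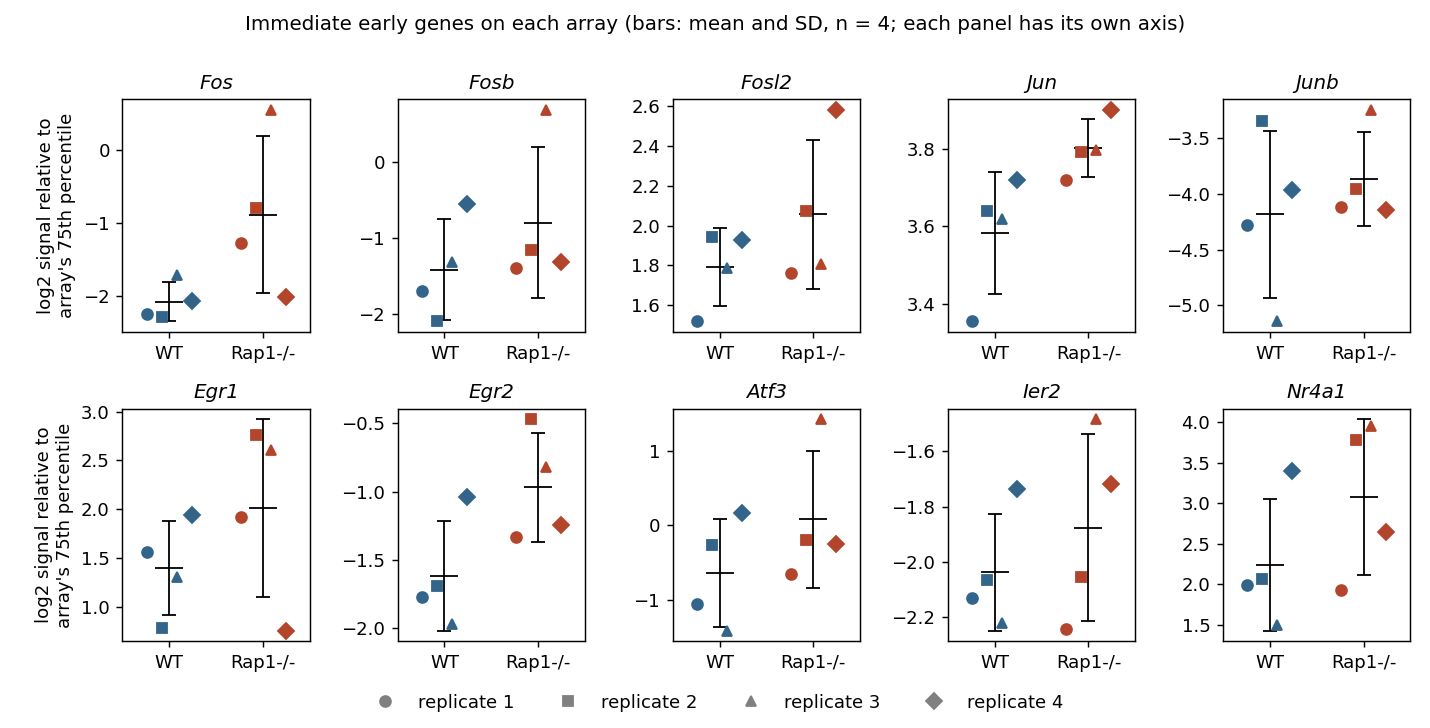
Log2 signal relative to the 75th percentile of each array (vertical axis, a separate scale in each panel) for the 10 immediate early genes in WT (blue) and Rap1-/- (red) white fat. Symbols are single arrays by replicate number and bars are the mean and SD (n = 4). Replicate 3 of Rap1-/- is the highest of the 8 arrays in 6 panels, and Jun is the single gene whose groups do not overlap.

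Egr1, the zinc finger factor most widely used as a marker of recent stimulation, had 2 high and 1 low array in Rap1-/-. Its values were 1.92, 2.76, 2.61 and 0.76 on the Rap1-/- arrays and 1.57, 0.78, 1.31 and 1.94 on the WT arrays. Replicates 2 and 3 of Rap1-/- lay above every WT array, whereas replicate 4 was the lowest of all 8. The difference was 0.61 ± 0.45 (SE, limma adjusted p = 0.897), with 1.16 on the first slide and 0.06 on the second. It was 0.36 without Rap1-/- replicate 2, 0.40 without WT replicate 2 and 1.03 without Rap1-/- replicate 4.

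Egr2 encodes KROX20. Egr2 read -1.33, -0.47, -0.82 and -1.24 on the Rap1-/- arrays and -1.77, -1.69, -1.97 and -1.04 on the WT arrays. All Rap1-/- arrays lay above 3 of the WT arrays, and WT replicate 4 lay between the Rap1-/- arrays. The means were -0.97 ± 0.40 and -1.62 ± 0.40 (SD, n = 4 each), and the difference of 0.65 ± 0.25 (SE), 1.57-fold, had a 95% interval of 0.08 to 1.23. It did not pass the test over all probes (limma, unadjusted p = 0.031, adjusted p = 0.897). The difference kept its sign within both slides, at 0.83 and 0.47.

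Nr4a1 encodes NUR77, which adrenergic signals induce in fat and muscle. Nr4a1 read 1.93, 3.78, 3.95 and 2.64 on the Rap1-/- arrays and 1.99, 2.07, 1.504 and 3.40 on the WT arrays. Its residual SD over both genotypes was the widest of the 10 genes, with replicates 2 and 3 of Rap1-/- highest, WT replicate 4 close behind, and Rap1-/- replicate 1 among the low WT arrays. The difference was 0.83 ± 0.54 (SE, limma adjusted p = 0.897), and was 0.82 ± 0.64 (SE) on the first slide and 0.85 ± 0.79 on the second. Leaving out single arrays gave 0.54 (without Rap1-/- replicate 3) to 1.22 (without WT replicate 4).

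Ier2, a nuclear protein induced with the others, read -2.24, -2.06, -1.49 and -1.72 on the Rap1-/- arrays and -2.13, -2.06, -2.22 and -1.74 on the WT arrays. Replicates 3 and 4 of Rap1-/- were highest, although replicate 4 exceeded WT replicate 4 by little, and replicate 1 was the lowest of all 8 arrays. The difference of 0.16 ± 0.18 (SE, limma adjusted p = 0.922) was -0.05 on the first slide and 0.38 on the second. It was 0.031 without Rap1-/- replicate 3, 0.10 without WT replicate 3, 0.26 without WT replicate 4 and 0.28 without Rap1-/- replicate 1.

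**Figure D2:**
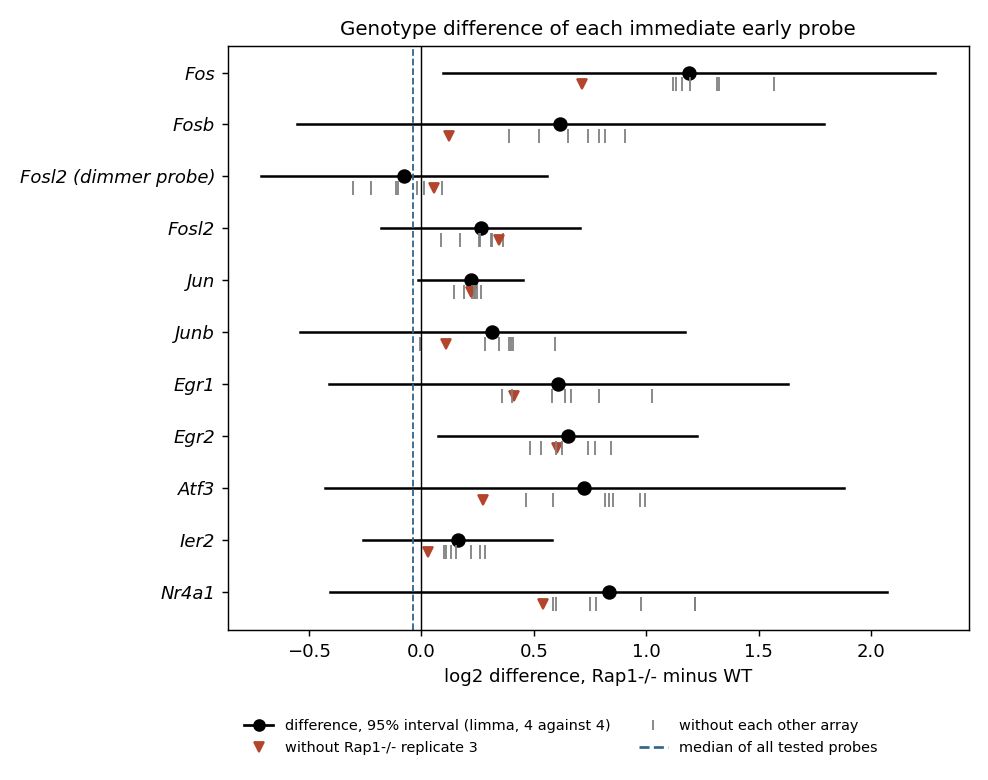
Log2 difference, Rap1-/- minus WT, for the 11 probes of the immediate early genes (points, with 95% intervals from limma, 4 arrays against 4). Small marks under each point give the difference with 1 array left out, red where that array is Rap1-/- replicate 3, and the dashed line is the median of all tested probes at -0.04. Of the brighter probes, only Fos and Egr2 have intervals above 0, and without Rap1-/- replicate 3 Fos is at 0.72, Fosb at 0.13 and Atf3 at 0.28.

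The 10 genes scattered more between arrays of a genotype than most probes. Their median residual SD was 0.67 on the log2 scale, against 0.21 over all tested probes, and 6 of the 10 (Fos, Fosb, Junb, Egr1, Atf3 and Nr4a1) lay above the 90th percentile of all tested probes. The spread of Junb includes WT replicate 3, at -5.15, where its probe was not well above background. Nr4a1 had a residual SD of 0.89 and Jun one of 0.12, at the 19.9th percentile. The mean of the 10 genes, each centred on its mean over the 8 arrays, was -0.15, 0.39, 0.94 and -0.06 in Rap1-/- and -0.46, -0.32, -0.54 and 0.20 in WT. Rap1-/- replicate 3 was therefore the highest array and WT replicate 4 the third highest, so the groups overlapped. Replicate 3 was the highest of 8 for 6 genes (Fos, Fosb, Junb, Atf3, Ier2 and Nr4a1) and among the highest 2 for 9, with Fosl2 as the exception. Without it the 10 means stayed higher in Rap1-/-, but their median difference was 0.31.

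**Figure D3:**
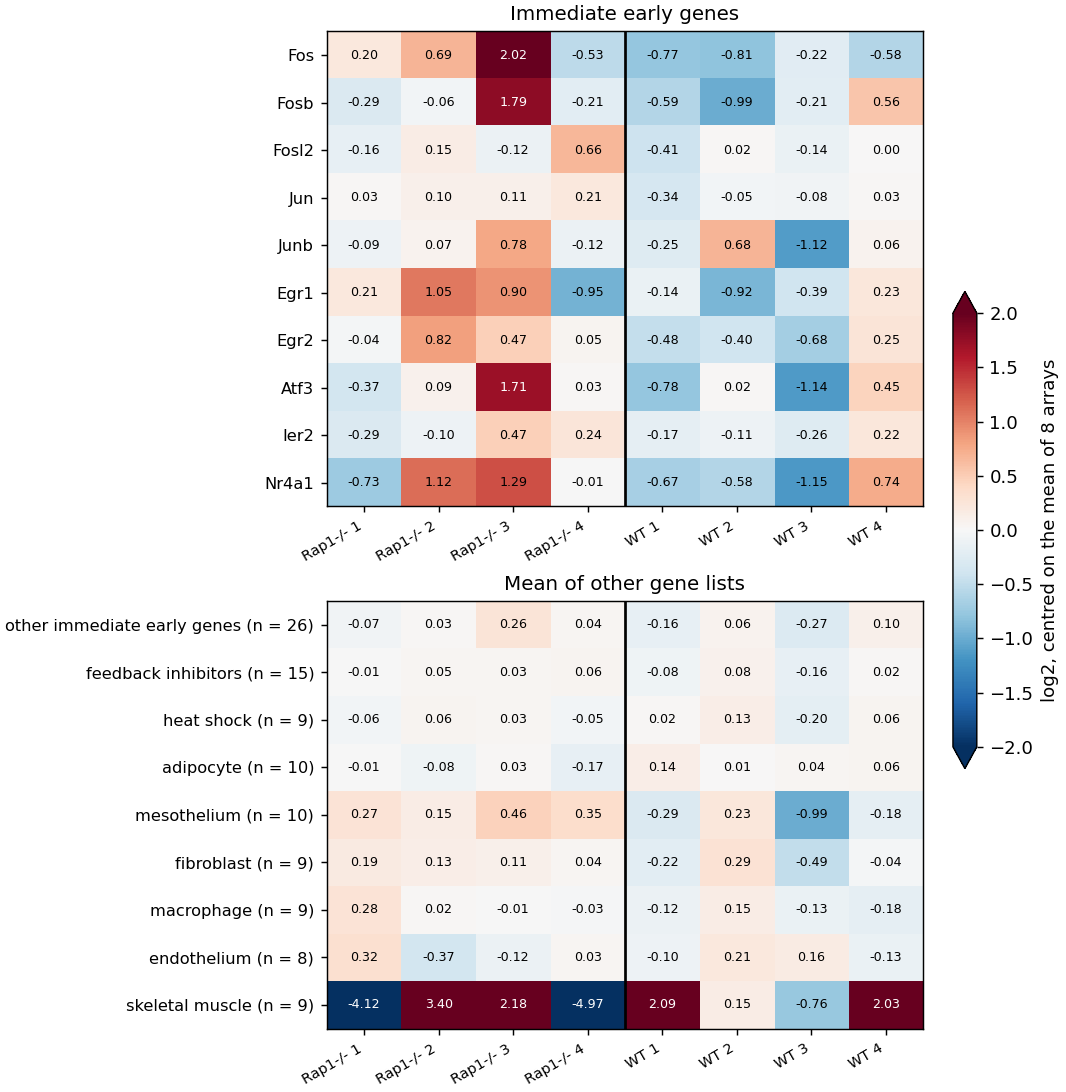
Log2 values centred on the mean of the 8 arrays, for each of the 10 immediate early genes (top) and for the mean of 9 other gene lists (bottom, n genes tested), with arrays in columns and Rap1-/- left of the black line. Colours stop at 2 log2 units either way, and each cell prints its value. Rap1-/- replicate 3 is the highest array for 6 of the 10 immediate early genes, mesothelial markers are lowest in WT replicate 3, and skeletal muscle markers run from -4.97 in Rap1-/- replicate 4 to 3.40 in Rap1-/- replicate 2.

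Markers of other cell types also varied between these arrays, and in bulk tissue fewer cells of a type and less RNA per cell cannot be told apart. Adipocyte markers were well above background on all 8 arrays for 10 of 10 genes, as the tissue label requires, and 8 of 10 had a lower mean in Rap1-/- (median -0.24, with array means of -0.17 to 0.03 in Rap1-/- and 0.01 to 0.14 in WT). Of these, 5 (Fabp4, Cidec, Lipe, Pparg and Retn) had an unadjusted p under 0.05, and 0 passed (limma adjusted p). Among all tested probes 3.2% had an unadjusted p under 0.05 with a lower mean. The 2 adipocyte markers with a higher mean were Lep, by 0.63 ± 0.31 (SE), and Cd36, by 0.0075 ± 0.10 (SE). The difference of Lep was the largest of the list in either direction. Markers of mesothelium, the lining of visceral fat, had a higher mean in Rap1-/- for 10 of 10 genes (median 0.63), of which 4 had an unadjusted p under 0.05 and 0 passed (limma adjusted p). Among all tested probes 40.4% had a higher mean, and 1.63% had one with an unadjusted p under 0.05. Their array means were 0.15 to 0.46 in Rap1-/- and -0.99 to 0.23 in WT, with the highest in Rap1-/- replicate 3 and the lowest in WT replicate 3, the same arrays as for the immediate early genes. All 10 mesothelial markers were well above background on every array.

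Skeletal muscle markers varied far more, with list means of -4.12, 3.40, 2.18 and -4.97 in Rap1-/- and 2.09, 0.15, -0.76 and 2.03 in WT. They were high on Rap1-/- replicates 2 and 3 and on WT replicates 1 and 4, and a lower mean in Rap1-/- was found for 9 of 9 genes (median -1.35). Among all tested probes 40.4% had a higher mean in Rap1-/-. Of the 9, 6 were well above background on all 8 arrays, and Myh4, a fast myosin, was so on 2 of the 4 Rap1-/- arrays and read -7.49 and -7.54 on replicates 1 and 4. Rap1-/- replicates 2 and 3 and WT replicate 4, where muscle markers were high, were also the 3 arrays with the highest Nr4a1 and Egr2, while WT replicate 1 was high in muscle markers and low in both genes.

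The remaining lists varied less than the muscle list, and their counts stand beside 40.4% of all tested probes with a higher mean in Rap1-/-. The array means were -0.03 to 0.28 in Rap1-/- and -0.18 to 0.15 in WT for 9 macrophage markers (7 higher, median 0.17), and 0.04 to 0.19 against -0.49 to 0.29 for 9 fibroblast markers (7 higher, median 0.23). All 5 smooth muscle markers had a higher mean in Rap1-/- (median 0.37, array means -0.68 to 0.86 against -0.74 to 0.23). Of 8 endothelial markers 3 had a higher mean (median -0.03, array means -0.37 to 0.32 against -0.13 to 0.21), as had 4 of 7 lymphocyte markers (median 0.05, -0.20 to 0.14 against -0.25 to 0.20). Of 4 erythroid markers 0 had a higher mean (median -0.33, array means -0.64 to 0.19 against -0.27 to 0.39), and of 3 ovarian markers 1 had (median -0.04, -0.23 to 0.43 against -0.09 to 0.13). The part of any of these cell types in the values of the immediate early genes was not tested.

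Most pairs of the 10 genes correlated positively across arrays, but how often pairs of other probes do so was not computed. After the genotype means were removed, 38 of the 45 pairs correlated positively over the 8 arrays, with a median Pearson r of 0.43, and 10 pairs reached 0.7. The pairs share genes and arrays, and 31 of the 45 were positive once the 2 arrays farthest from the median of the first gene were left out (median r 0.28). With the mean of each genotype on each slide removed instead, 35 were positive (median r 0.60). Each such mean came from 2 arrays, so the values left are mirror pairs. That r rests on fewer independent values and cannot be set against the others as a rise. Without Rap1-/- replicate 3, 35 were positive (median r 0.39). The level also moved with scaling, to a median r of 0.38 with quantile normalisation and 0.56 with scaling to the E1A spike-ins. A slide held too few arrays to give values of its own.

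Egr2 and Nr4a1 were the closest pair and the only 1 of the 45 that passed the adjustment over pairs. Exact here means that all pairings of arrays were enumerated. Since genotype means were removed first, the p-values of these correlations are approximate. Pearson's r was 0.933 (exact permutation test over pairings, p = 0.000719, adjusted p = 0.0324) and Spearman's rho was 0.976 (exact permutation test, p = 0.000397, adjusted p = 0.0179). The correlation was 0.964 without the 2 arrays farthest from the median of Egr2 (Rap1-/- replicate 2 and WT replicate 4) and 0.978 without Rap1-/- replicate 3. It was 0.990 with the mean of each genotype on each slide removed, which leaves fewer independent values. Across the arrays, the 3 highest values of both genes were on Rap1-/- replicates 2 and 3 and WT replicate 4, and the lowest on WT replicate 3.

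Fos and Fosb correlated at r = 0.792 (exact permutation test, p = 0.0147, adjusted p = 0.165) and rho = 0.786 (exact permutation test, p = 0.0279, adjusted p = 0.157), which did not pass. Without the 2 farthest arrays (Rap1-/- replicates 3 and 4) r was 0.511, and without Rap1-/- replicate 3 alone it was 0.279, so the relation rested on that array. The pair of Fosb and Atf3 rested on single arrays, with r = 0.762 (exact permutation test, p = 0.0295, adjusted p = 0.191) but rho = 0.333 (exact permutation test, p = 0.428, adjusted p = 0.602), and r was -0.592 without Rap1-/- replicate 3 and WT replicate 4. Atf3 and Ier2 had r = 0.862 (exact permutation test, p = 0.0061, adjusted p = 0.137) and rho = 0.857 (exact permutation test, p = 0.0107, adjusted p = 0.115), with r of 0.517 left without the same 2 arrays. With the mean of each genotype on each slide removed r was 0.913, from fewer independent values.

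Fosl2 and Jun formed a separate pair, with r = 0.745 (exact permutation test, p = 0.0356, adjusted p = 0.200) and rho = 0.833 (exact permutation test, p = 0.0154, adjusted p = 0.115), and with r of 0.794 without the 2 farthest arrays. Both were highest on Rap1-/- replicate 4 and lowest on WT replicate 1. Against the rest the median r was -0.01 for Fosl2 and 0.32 for Jun, compared with 0.60 for Atf3 and 0.63 for Nr4a1. Fosl2 and Egr1 had the lowest r, at -0.632 (exact permutation test, p = 0.0920, adjusted p = 0.311), with rho = -0.333 (exact permutation test, p = 0.428, adjusted p = 0.602) and r of -0.313 without the 2 farthest arrays.

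**Figure D4:**
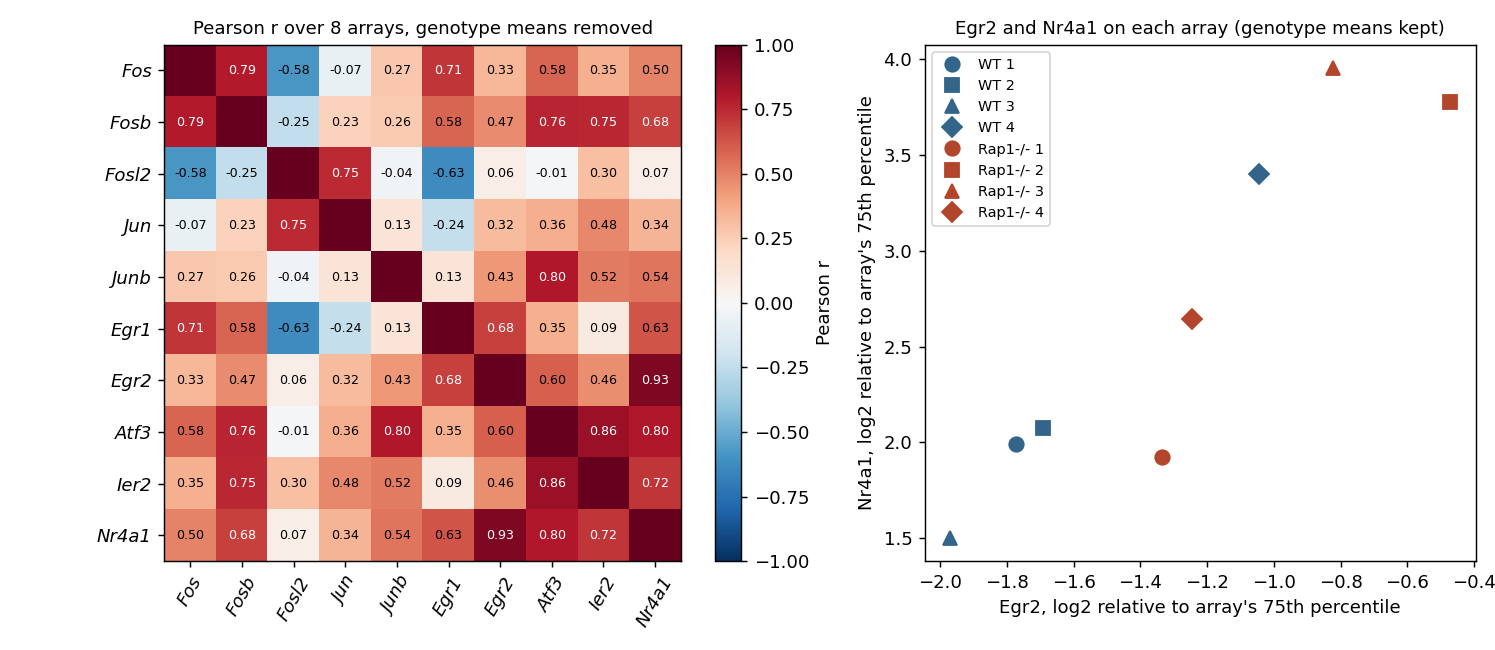
Left, Pearson r of each pair of the 10 immediate early genes over 8 arrays after the genotype means were removed, from -1 (blue) to 1 (red). Right, Nr4a1 against Egr2 on each array, both as log2 signal relative to the 75th percentile of the array with genotype means kept, WT blue and Rap1-/- red, symbols by replicate. Egr2 and Nr4a1 correlate at 0.93, and Fosl2 has r below 0 with 5 of the other genes.

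The wider set of immediate early genes was split in direction. Of 30 further immediate early genes 26 were tested (Fosl1, Egr3, Egr4 and Nr4a3 were too dim), 16 with a higher and 10 with a lower mean in Rap1-/-, a median difference of 0.06 and 0 passing the adjusted test (limma). Ccn1 had an unadjusted p under 0.05 with a higher mean, as had 1.63% of all tested probes. Ptgs2 also had one, but most of its WT values were not above background, so its p is not read as a result. Ccn1, which encodes the matricellular protein CYR61, read 1.57, 1.26, 2.01 and 1.00 on the Rap1-/- arrays and 0.34, 0.85, 0.90 and 0.46 on the WT arrays, with the WT arrays all lower. The difference was 0.82 ± 0.23 (SE, limma, unadjusted p = 0.007, adjusted p = 0.897), and 0.82 and 0.83 on the slides. Groups that do not overlap, with Rap1-/- higher, were found for 0.889% of all tested probes. Ptgs2, the inducible cyclooxygenase, read -4.22, -4.21, -3.34 and -4.21 on the Rap1-/- arrays and -5.95, -5.55, -6.67 and -4.32 on the WT arrays. It was well above background on all 4 Rap1-/- arrays and on 1 WT array, replicate 4, which came close to the Rap1-/- arrays. It was therefore tested through the Rap1-/- arrays, and since the other WT values are not above background no size is given for its difference.

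Genes that restrain the response were split in direction. Of 15 feedback inhibitors tested (Dusp5 was too dim), 8 had a higher and 7 a lower mean in Rap1-/-, with a median difference of 0.01 and 0 passing (limma adjusted p; 0 at an unadjusted p under 0.05). Spry4, an inhibitor of receptor tyrosine kinase signalling, differed by 0.71 ± 0.40 (SE), Socs3, which restrains cytokine receptors, by 0.30 ± 0.17, Jdp2, a JUN dimerisation partner that represses AP-1, by 0.29 ± 0.15, and Nfkbia, the inhibitor of NF-κB, by -0.19 ± 0.13. The limma adjusted p was 0.897 for each of them. Spry4 was dim and not well above background on WT replicate 3. It read -5.94 there, against -4.59 to -4.16 on the other WT arrays, so the size of its difference is uncertain.

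Of 21 upstream activators, 8 had a higher and 13 a lower mean (median -0.02), with 0 at either threshold in limma. The smallest unadjusted p belonged to Mapk3, which encodes the kinase ERK1, at 3.78, 3.67, 3.77 and 3.66 in Rap1-/- and 4.01, 3.91, 3.81 and 3.86 in WT. All 4 Rap1-/- arrays lay below the WT arrays, by a difference of -0.18 ± 0.08 (SE, limma, unadjusted p = 0.064, adjusted p = 0.897). Groups that do not overlap, in either direction, were found for 3.16% of all tested probes. Rps6ka3, a kinase downstream of ERK, differed by 0.24 ± 0.15, and the ETS partners of serum response factor Elk4 and Elk1 by -0.19 ± 0.11 and -0.17 ± 0.14 (SE).

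Of 9 heat shock genes, which respond to stress of tissue by another route, 4 had a higher and 5 a lower mean (median -0.02), and 0 passed (limma adjusted p). The 2 with an unadjusted p under 0.05 both had lower means and encode the mitochondrial chaperonin pair. Hspe1 differed by -0.25 ± 0.09 (SE, limma, unadjusted p = 0.023, adjusted p = 0.897) and Hspd1 by -0.28 ± 0.10 (SE, limma, unadjusted p = 0.024, adjusted p = 0.897), with groups that did not overlap. Among all tested probes 3.2% had an unadjusted p under 0.05 with a lower mean. Groups that did not overlap, in either direction, were found for 3.16%. The cytosolic Hsph1 and Hspa8 differed by 0.19 ± 0.12 and 0.15 ± 0.08 (SE).

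The genes whose pattern across the 8 arrays was most like the mean of the 10 standardised genes, with genotype means removed, were sought among 14914 other named genes. The 12 closest were Picalm, Cfap70, Obsl1, Fgfr3, Rab10, Sgo1, Ngef, Ago3, Gpat4, Tbrg4, Ccnd1 and Alx1, with r from 0.90 to 1.00. With 8 arrays and this many genes, high values of r are found for some genes whatever the pattern sought. Picalm, which had the highest, spanned only 4.94 to 5.15 in Rap1-/- and 5.12 to 5.30 in WT. Cfap70 was dim, being well above background on 3 Rap1-/- arrays and 1 WT array. Of the fixed immediate early and feedback lists the closest were Arc (r = 0.84), Ptgs2 (0.82, with 3 of the 8 values not well above background), Nr4a2 (0.80) and Csrnp1 (0.74). Dusp1, whose product inactivates MAP kinases, had 0.07 and Myc -0.13, and the lowest were Spry1 (-0.41) and Zfp36l1 (-0.49). Arc was highest on Rap1-/- replicate 3, at -1.74, against -3.37 to -2.64 on the other arrays, and its genotype difference was 0.26 ± 0.33 (SE, limma adjusted p = 0.927).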

How the data were processed

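The authors hybridised Cy3-labelled RNA of 8 samples, and the deposited scanner files (Feature Extraction 10.7.3.1, design on mm9) give processed signal in linear intensity units with flags of 0 or 1. The deposited table of values, on the log2 scale, matches a quantile normalisation after normexp (offset 50), and was tried as an alternative. Here log2 processed signal was taken relative to the 75th percentile of each array, spots of a probe were averaged, and a probe was tested if at least 4 of the 8 arrays had it well above background. RefSeq accessions (GRCm38.p6 table) named 26056 probes (46.8%). Genotypes were compared with limma 3.58.1 in R 4.3.3, adjusted over 33982 probes at 0.05, and the method was tested on simulated data. The probe with the highest mean stood for a gene. Correlations used all 40320 pairings in SciPy 1.17.1 on values with genotype means removed, which makes these p-values approximate. Genes named were the 10 members, Terf2ip, up to 4 genes per list by unadjusted p, and the 12 genes most like the members. Arc, Nr4a2, Csrnp1, Dusp1, Myc, Spry1, Zfp36l1, Myh4, Fabp4, Cidec, Lipe, Pparg, Retn, Lep and Cd36 were named after their values were seen. The members and gene lists were chosen with earlier results of these data known. Precision is limited by the number of arrays. The alternatives are given in the closing section. Normexp used the median spot signal in place of the mean.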

Additional observations from a re-analysis of the deposited data

Results flagged for a closer look

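Among 81 groups of 4 arrays examined for a sample far from the others, 2 were set apart by a gap that exceeded Dixon's 95% critical value, and chance gives about 1 in 20. Fosb was at 0.68 on Rap1-/- replicate 3, with a gap to the nearest Rap1-/- array of 0.889 of the range of the group. Ptgs2 was at -3.34 on the same array, with a gap of 0.992 of the range.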

How the results depend on the processing

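The 10 genes were recomputed under 19 alternatives each. Of these 190 values 186 kept their direction and stayed unpassed (lowest adjusted p 0.572), and 4 reversed. Junb was -0.027 with normexp background correction, -0.23 within slide 1 and -0.0058 without WT replicate 3 (up to 0.60 without WT replicate 2), and Ier2 was -0.052 within slide 1. The cause was not tested. The number of members passing was 0 throughout. The median member difference was 0.40 with normexp, 0.46 in the deposited table, 0.64 with quantile normalisation, 0.69 with median scaling and 0.85 with scaling to the E1A spike-ins, which moved the median of all probes from -0.04 to 0.20, and it ran from 0.31 (without Rap1-/- replicate 3) to 0.82 (without WT replicate 4) when single arrays were left out. Members with an unadjusted p under 0.05 numbered 2, but 0 without Rap1-/- replicate 2, WT replicate 1 or WT replicate 2, and 3 without Rap1-/- replicate 1, Rap1-/- replicate 4 or WT replicate 4. Over all probes 2 were called. The count was 3 with normexp, in the deposited table and with trended and robust variance, 1 among probes well above background on all 8 arrays, 1 with 1 probe per gene, 1 within slide 1 and 0 within slide 2, the lower counts coming from fewer probes or arrays. It was 2 whichever array was left out. The number at an unadjusted p under 0.05 was 1641 (554 higher), 1153 without WT replicate 1, 3019 without WT replicate 2, 2081 (1965 higher) with E1A scaling, 1306 (735 higher) with median scaling, 1578 (810 higher) with quantile normalisation, 1505 (770 higher) in the deposited table and 1709 (345 higher) with normexp. Positive pairs ranged from 33 to 42 and genes above the 90th percentile of spread from 4 to 6 over the same omissions. With the replicate number as a block, 0 members and 2 probes in all passed, and 1 member had an unadjusted p under 0.05. Same-numbered samples correlated at -0.21 to -0.10 in their deviations, so the numbers were not taken as pairs.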
